A study of Mus musculus with 12 samples.

Results

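Hox genes encode homeodomain transcription factors and lie in 4 clusters, HoxA on chromosome 6, HoxB on chromosome 11, HoxC on chromosome 15 and HoxD on chromosome 2 of the mouse. Within a cluster, genes of low paralogue number are generally active further towards the head and genes of high number further towards the tail, so that the set of Hox genes an organ uses reflects its position along the body axis. In the developing lung Hox genes are expressed mainly in mesenchyme, and mouse Hoxa5 is required there for normal development of the trachea and lung. Members were taken as every array probe whose annotated symbol is Hox, a letter from a to d and a number. This gave 50 probes of 38 genes among 25697 probes of 16593 named genes.

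The study measured messenger RNA of whole E15.5 embryonic lungs of background strain 129/Sv on Illumina bead arrays, with 4 specimens in each of 3 genotypes. Mek1 and Mek2, the genes Map2k1 and Map2k2, encode the kinases that activate ERK. Double mutants were Mek1flox/flox;Mek2-/-;Dermo1+/Cre, so the labels give Mek2 as null in all cells, and both Mek1 alleles were open to deletion wherever Cre was active. The one Mek1 allele group was Mek1+/flox;Mek2-/-;Dermo1+/Cre and kept an intact Mek1 allele on the same Mek2-null background. Controls were Dermo1+/Cre, so all 3 groups carried the Cre driver, which is expressed from the Twist2 (Dermo1) locus in embryonic mesenchyme and not in lung epithelium. The labels do not say whether specimens came from separate litters or were pooled, so p-values measure the spread between these specimens. Whole-lung RNA does not tell fewer cells of a type from less RNA per cell.

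The arrays held between 10467 and 11878 probes above background each, and their number limits the precision. A probe was above background on an array when its detection p, which compares it with the negative control probes of that array, was under 0.01. Control replicates 2 and 3 were the brightest arrays before normalization, with raw upper quartiles reaching 390.1 against 226.6 to 306.4 on the other arrays. Map2k2 measured 10.85 ± 0.24 in double mutants, 10.58 ± 0.15 with one Mek1 allele and 11.59 ± 0.08 in controls (log2 intensity, mean ± SD, n = 4 each). Its probe was thus lower in both Mek2-null groups but still read well above background there, and where it lies relative to the inactivated part of the gene is not known here, so it does not show loss of the protein. Since the probe for Map2k1 passed the detection threshold on 0 of 12 arrays, the Mek1 deletion was not checked. The lung label was borne out by 6 of the 6 measured epithelial markers, among them Nkx2-1 and Sftpc, and by 6 of 8 mesenchymal markers, among them Tbx4, Tbx5 and Foxf1, while 0 of 4 liver markers, 0 of 4 thymus markers and 0 of 5 markers of kidney and other caudal organs were above background. Markers of other tissues were in part above background. They were 3 of 5 for heart, 2 of 5 for skeletal muscle, 2 of 4 for neural cells and 1 of 4 for oesophagus. The medians of the heart and muscle markers differed by 0.46 and 0.40 in double mutants against controls. With one Mek1 allele against controls they differed by 0.5 and 0.27, and in double mutants against one Mek1 allele by -0.03 and 0.14. In these comparisons 0 heart or muscle markers were called, where 3.28%, 0.734% and 0.566% of all genes were. At these shares 0 calls does not set so few genes apart.

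Hox transcripts above background lay in a compact block of the HoxA and HoxB clusters. Counting a gene as above background when a probe of it passed on at least 4 of the 12 arrays, 11 of 38 Hox genes (28.9%) were above background, against 50.1% of all named genes. HoxA supplied 5 of its 10 genes with a probe and HoxB 6 of 10. HoxC supplied 0 of 9 and HoxD 0 of 9. Of HoxA and HoxB genes with paralogue numbers 2 to 7, 10 of 12 were above background, and each of these 10 was so on all 12 arrays, in every genotype. They were Hoxa2, Hoxa4, Hoxa5 and Hoxa7, and Hoxb2, Hoxb3, Hoxb4, Hoxb5, Hoxb6 and Hoxb7. The exceptions inside the block, Hoxa3 with 2 probes and Hoxa6 with 1 probe, were above background on 0 of 12 arrays. In HoxC and HoxD, 0 of 5 genes with these paralogue numbers were above background.

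Beyond paralogue 7 only 1 of 19 genes with a probe was above background, Hoxa13, and at paralogue 1 it was 0 of 2. Hoxa13, a gene of distal limb and hindgut in the mouse embryo, rested on 1 of 3 probes. That probe was above background on 2 of 4 double mutant arrays, on 4 of 4 arrays with one Mek1 allele and on 4 of 4 control arrays, and the other 2 Hoxa13 probes were above background on 0 of 12. Just outside the rule lay 4 HoxC genes, Hoxc10 on 3 arrays, Hoxc4 and Hoxc13 on 2 each and Hoxc8 on 1, spread over the genotypes. The remaining 23 Hox genes were above background on 0 of 12 arrays. Being below background on this array gives no level for a transcript, since a probe that reports its gene poorly reads the same as a silent gene.

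**Figure D1:**
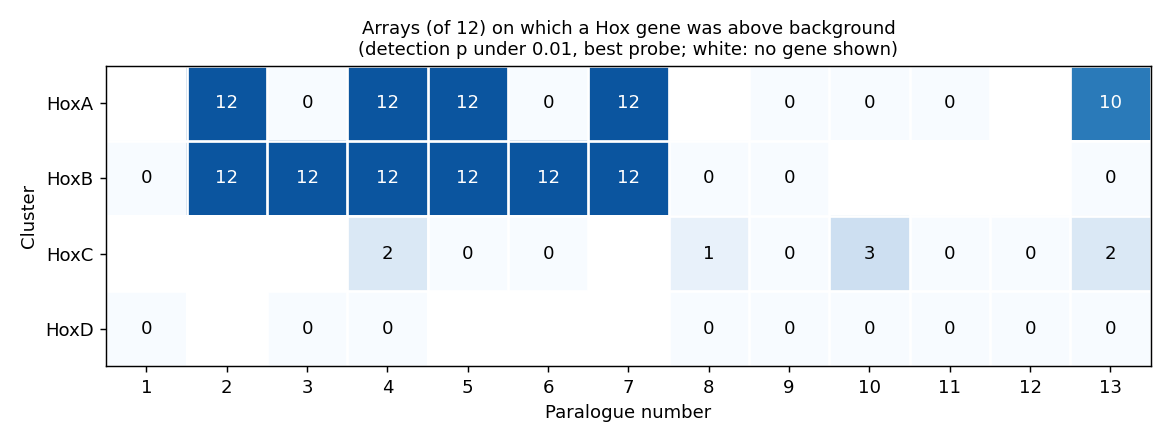
Each cell is a Hox gene, with its cluster down the page and its paralogue number across, and shows the number of the 12 arrays on which its best probe was above background. The cells at 12 are Hoxa2, Hoxa4, Hoxa5, Hoxa7 and Hoxb2 to Hoxb7, and the only other gene above 3 arrays is Hoxa13 at 10.

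The block had a gap within a short stretch of HoxA, where Hoxa5 and Hoxa7 were above background on 12 of 12 arrays and Hoxa6, between them, on 0. The 250 bases before each of these starts are shown from the RefSeq promoter table of build GRCm38.p6, all on the minus strand: Hoxa5 at chr6:52204588-52204837, Hoxa6 at chr6:52208673-52208922 and Hoxa7 at chr6:52218574-52218823. Capitals mark matches on either strand to any of 4 motifs, TGATNNAT for HOX-PBX pairs, TAATTA for homeodomains, TTTATG for CDX proteins and AGGTCA for a nuclear receptor half-site.
Hoxa5: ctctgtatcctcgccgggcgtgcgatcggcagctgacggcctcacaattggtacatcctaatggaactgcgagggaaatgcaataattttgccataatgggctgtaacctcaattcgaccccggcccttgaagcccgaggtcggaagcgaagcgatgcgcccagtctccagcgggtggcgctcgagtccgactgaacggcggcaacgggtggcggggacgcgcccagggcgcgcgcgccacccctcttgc
Hoxa6: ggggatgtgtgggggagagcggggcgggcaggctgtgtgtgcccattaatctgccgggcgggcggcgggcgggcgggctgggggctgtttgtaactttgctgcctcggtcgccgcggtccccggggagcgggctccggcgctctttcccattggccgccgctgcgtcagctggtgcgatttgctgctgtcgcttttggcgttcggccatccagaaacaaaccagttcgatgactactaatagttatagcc
Hoxa7: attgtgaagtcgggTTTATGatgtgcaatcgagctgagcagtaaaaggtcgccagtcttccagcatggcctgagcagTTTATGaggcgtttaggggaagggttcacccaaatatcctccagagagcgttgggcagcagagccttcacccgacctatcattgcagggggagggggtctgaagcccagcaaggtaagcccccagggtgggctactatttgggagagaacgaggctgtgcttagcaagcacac

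The Hoxa7 stretch held 2 matches to TTTATG, and the Hoxa5 and Hoxa6 stretches held 0 matches to any of the 4 motifs. TTTATG occurred in 10.8% of the 32851 stretches of this length in the table, TGATNNAT in 7.68%, TAATTA in 4.84% and AGGTCA in 14%. Over all 24 Hox stretches in the table, from 22 genes, 5 held TTTATG, 4 TGATNNAT, 2 TAATTA and 6 AGGTCA. Base composition did not separate by detection the genes that had a stretch, but only 5 of the 11 genes above background had one. The 5 stretches of genes above background had a median GC content of 58%, within a range of 46.4% to 80%, and the 19 of genes below background had a median of 59.2%, within 40.4% to 74.4%. These matches describe the letters only.

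The comparisons of genotypes asked whether Hox transcripts above background changed when Mek genes were lost. For each gene the probe with the highest mean stood for it, differences were fitted with limma over all 8311 named genes above background, and a gene was called at a Benjamini-Hochberg adjusted p under 0.05 over those genes. In double mutants against controls 0 of 11 Hox genes were called, where 3.28% of all genes were, and 2 Hox genes had an unadjusted p under 0.05, where 19.4% of all genes did. In double mutants against one Mek1 allele 0 of 11 were called, against 0.566% of all genes, and 3 had an unadjusted p under 0.05, against 11.8%. With one Mek1 allele against controls 0 of 11 were called, against 0.734% of all genes, and 2 had an unadjusted p under 0.05, against 16.9%. The first and last of these comparisons share the control arrays, and the first and second share the double mutant arrays. The second and last share the arrays with one Mek1 allele, so a gene's differences in them are not independent. A difference of at least 1.5-fold was seen in 0, 1 and 0 Hox genes in the same order of comparisons, against 2.98%, 1.83% and 1.84% of all genes. The median Hox difference was -0.01 in double mutants against controls, -0.14 against one Mek1 allele and 0.05 with one Mek1 allele against controls, on the log2 scale, where the medians over all genes were 0, 0.01 and -0.01.

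**Figure D2:**
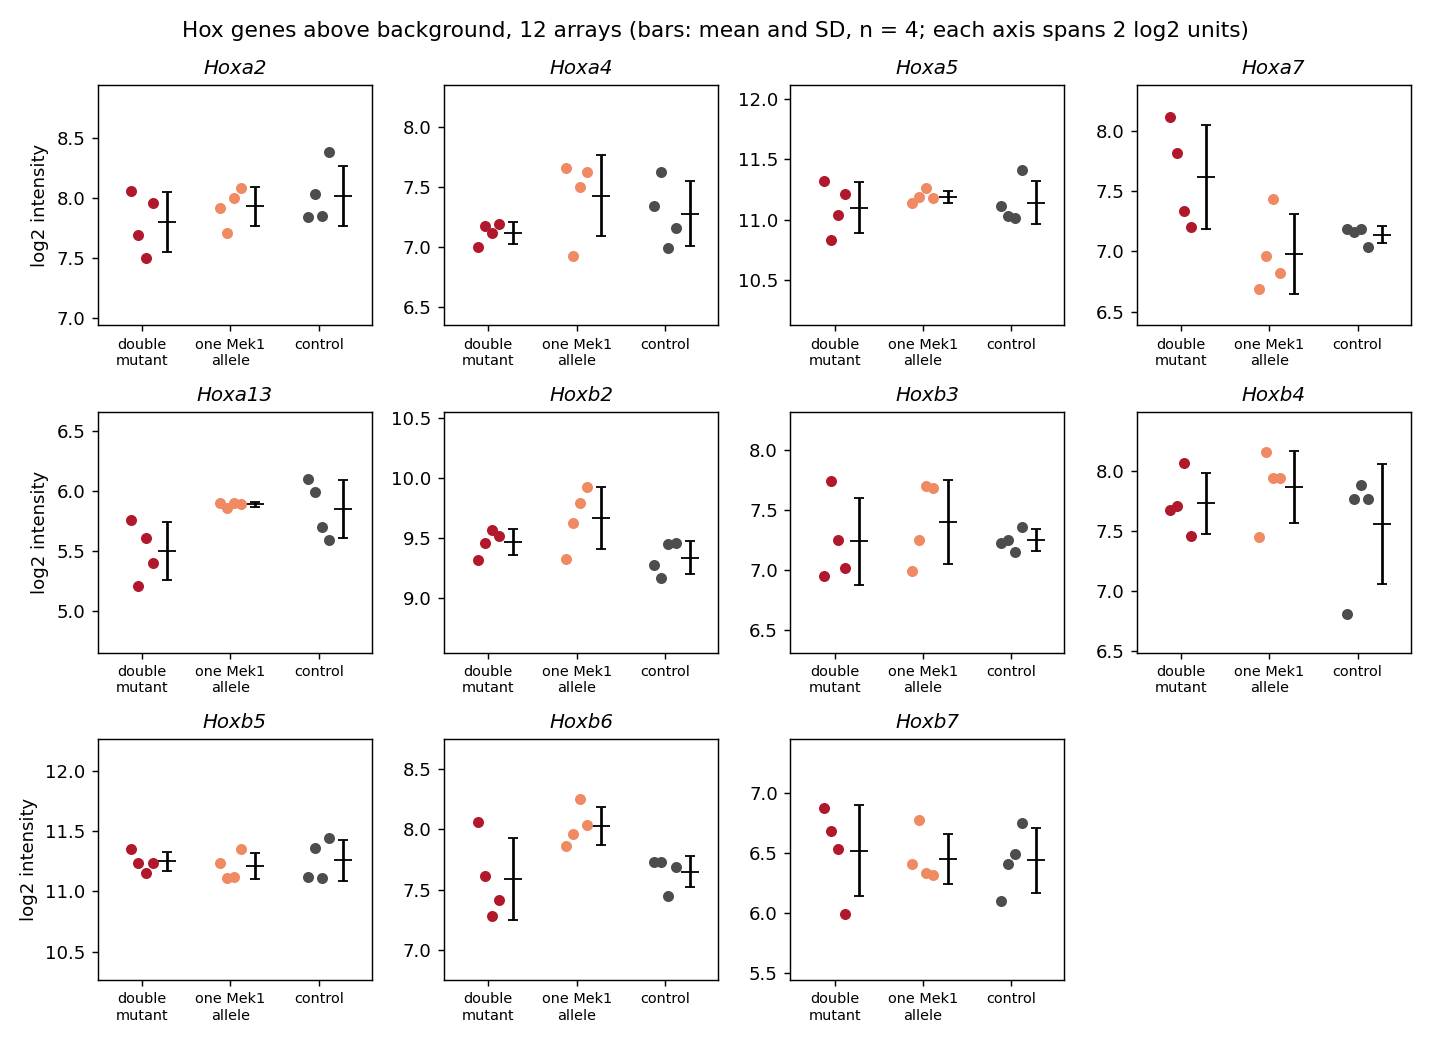
Log2 intensity of the 11 Hox genes above background on each of the 12 arrays, with the mean and SD of each genotype (n = 4) beside the points. Hoxa5 and Hoxb5 lie within about the same range in all 3 genotypes, and the double mutant points of Hoxa7 lie between 7.20 and 8.12 against 7.04 to 7.19 in controls.

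Hoxa5 and Hoxb5, the paralogue 5 genes of their clusters, have roles in lung branching and airway patterning in the mouse. Hoxa5 had log2 intensities of 11.32, 10.83, 11.04 and 11.21 in double mutants, 11.14, 11.19, 11.26 and 11.18 with one Mek1 allele, and 11.11, 11.03, 11.01 and 11.41 in controls. The 3 groups overlapped throughout. The difference was -0.04 ± 0.12 in double mutants against controls (log2 ± SE, limma adjusted p = 0.896), with a 95% interval of -0.30 to 0.22.

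Hoxb5 gave the narrowest intervals of the 11 genes. It had log2 intensities of 11.35, 11.24, 11.15 and 11.24 in double mutants, 11.24, 11.11, 11.12 and 11.35 with one Mek1 allele, and 11.12, 11.36, 11.11 and 11.44 in controls, again with overlapping groups. It differed by -0.01 ± 0.10 in double mutants against controls (limma adjusted p = 0.968, 95% interval -0.23 to 0.21), by 0.04 against one Mek1 allele (interval -0.18 to 0.26) and by -0.05 with one Mek1 allele against controls (interval -0.27 to 0.17). Hoxa5 in the same order of the last 2 comparisons differed by -0.09 (interval -0.35 to 0.16) and 0.05 (interval -0.21 to 0.31). The within-group SD was 0.13 for Hoxb5 and 0.17 for Hoxa5, against a median of 0.19 over all genes and 0.23 over the 11 Hox genes.

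Among the other HoxA genes the widest differences were in Hoxa7, a gene of the thoracic axial skeleton in the mouse. Its log2 intensities were 8.12, 7.82, 7.34 and 7.20 in double mutants, 6.69, 6.96, 7.44 and 6.82 with one Mek1 allele, and 7.19, 7.16, 7.19 and 7.04 in controls. All 4 double mutant values lay above all 4 controls, the lowest only just, and 1 array with one Mek1 allele overlapped the double mutants. Groups did not overlap in 13.7% of all genes in double mutants against controls, and in 1 of the 11 Hox genes. Hoxa7 differed by 0.47 ± 0.20 against controls (limma adjusted p = 0.21) and by 0.64 ± 0.20 against one Mek1 allele (limma adjusted p = 0.204), a ratio of 1.56 that was the only Hox difference of at least 1.5-fold. With one Mek1 allele against controls it differed by -0.17 ± 0.20 (limma adjusted p = 0.709).

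Hoxa13 had log2 intensities of 5.76, 5.21, 5.61 and 5.40 in double mutants, 5.90, 5.86, 5.90 and 5.89 with one Mek1 allele, and 6.10, 5.99, 5.70 and 5.59 in controls. The double mutant values lay wholly below those with one Mek1 allele, which 6.34% of all genes matched in one direction or the other, and overlapped the controls. The differences were -0.39 ± 0.14 against one Mek1 allele (limma adjusted p = 0.267) and -0.35 ± 0.14 against controls (limma adjusted p = 0.18). Since only 2 of the 4 double mutant arrays were above background for this probe, and its other probes were not, the size of the difference is uncertain.

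Hoxa2, which patterns hindbrain and branchial arches in the mouse, had 2 probes, both above background on all 12 arrays. The probe that stood for the gene read 8.06, 7.69, 7.50 and 7.96 in double mutants, 7.92, 7.71, 8 and 8.08 with one Mek1 allele, and 7.84, 8.03, 7.85 and 8.38 in controls on the log2 scale. The groups overlapped, and the difference in double mutants against controls was -0.22 ± 0.15 (limma adjusted p = 0.454) from this probe and -0.12 from the second. Hoxa4 ranged from 7 to 7.19 in double mutants, 6.93 to 7.66 with one Mek1 allele and 6.99 to 7.63 in controls. Its differences were -0.16 in double mutants against controls and -0.31 against one Mek1 allele (limma adjusted p = 0.653 and 0.508).

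In HoxB, with 1 probe standing for each gene, the lowest p-values were in Hoxb6 and Hoxb2. Hoxb6 had log2 intensities of 8.06, 7.61, 7.28 and 7.41 in double mutants, 7.86, 7.96, 8.25 and 8.04 with one Mek1 allele, and 7.73, 7.73, 7.45 and 7.69 in controls. The values with one Mek1 allele lay wholly above the controls, as 9.91% of all genes did in one direction or the other, and 1 double mutant array overlapped them. Hoxb6 differed by 0.38 ± 0.15 with one Mek1 allele against controls (limma adjusted p = 0.23), by -0.44 ± 0.15 in double mutants against one Mek1 allele (limma adjusted p = 0.266). Double mutants and controls differed by -0.06 ± 0.15 (limma adjusted p = 0.873).

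Hoxb2, a hindbrain segment gene, read 9.32, 9.46, 9.57 and 9.52 in double mutants, 9.33, 9.63, 9.79 and 9.93 with one Mek1 allele, and 9.28, 9.17, 9.45 and 9.46 in controls. Of the arrays with one Mek1 allele, 3 lay above all controls and 1 among them. Hoxb2 differed by 0.33 ± 0.13 with one Mek1 allele against controls (limma adjusted p = 0.207). For double mutants against controls the difference was 0.13 ± 0.13 (limma adjusted p = 0.622).

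Hoxb4 read 7.68, 7.71, 8.07 and 7.46 in double mutants, 7.45, 8.16, 7.94 and 7.94 with one Mek1 allele, and 6.81, 7.77, 7.88 and 7.77 in controls. Control replicate 1 was the low array there, and the within-group SD of 0.37 was the highest of the 11 genes. The difference was 0.31 ± 0.23 with one Mek1 allele against controls (limma adjusted p = 0.516) and 0.06 without that array. In double mutants against controls it was 0.17 with the array and -0.08 without it.

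On the probes that stood for them, Hoxb3 and Hoxb7 overlapped between all groups. Hoxb7 ranged from 5.99 to 6.87 in double mutants, 6.32 to 6.77 with one Mek1 allele and 6.10 to 6.75 in controls, and its differences were 0.08 in double mutants against controls and 0.02 with one Mek1 allele against controls. Hoxb3 ranged from 6.95 to 7.74 in double mutants, 6.99 to 7.70 with one Mek1 allele and 7.15 to 7.36 in controls. Its 3 probes gave different values for double mutants against controls, -0.01 for the probe that stood for it, -0.41 for another probe seen on all 12 arrays and 0.05 for a dim probe that was above background on 8 of 12 arrays. Against one Mek1 allele the same probes gave -0.16, -0.47 and 0. Overlap of groups was read only on the probe that stood for the gene.

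**Figure D3:**
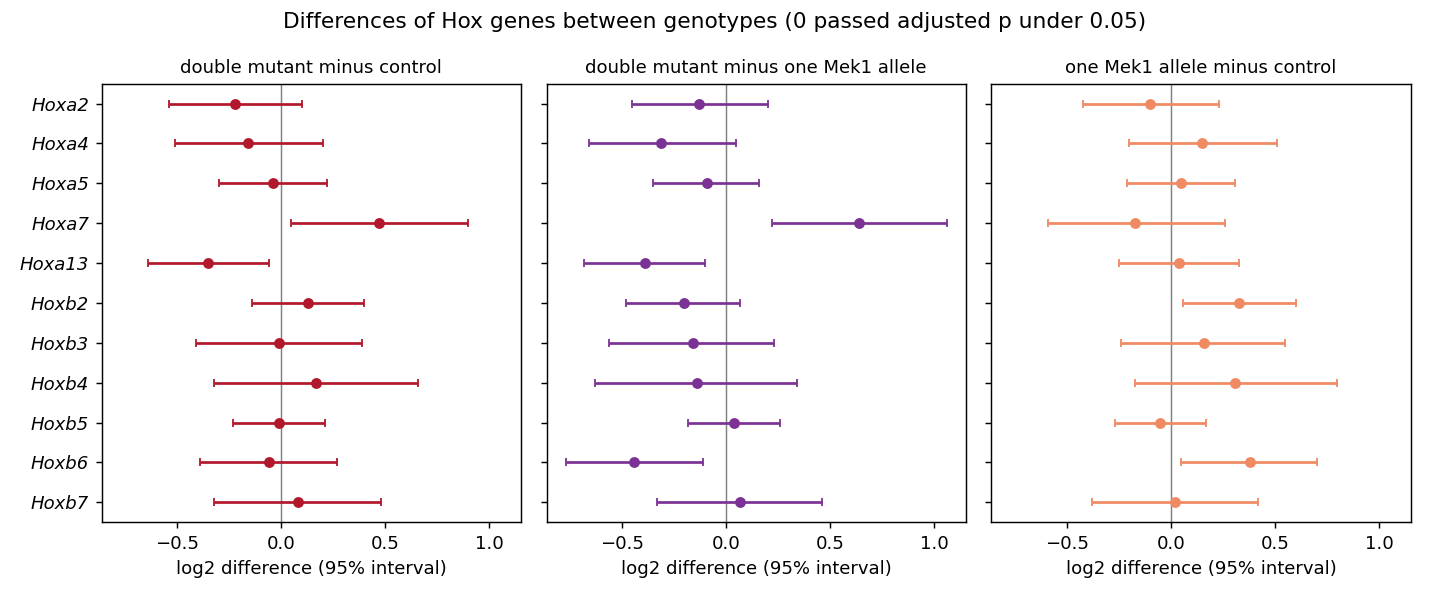
Log2 differences of the 11 Hox genes (points) with their 95% intervals from limma (lines) in the 3 comparisons. The intervals of Hoxa7 and Hoxa13 lie off 0 in both comparisons of double mutants and those of Hoxb6 in both comparisons with one Mek1 allele, and that of Hoxb2 with one Mek1 allele against controls, but 0 of the 11 genes passed after adjustment over 8311 genes.

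Neither cluster moved as a unit in double mutants against controls. The difference was positive for 1 and negative for 4 of the 5 HoxA genes, with a median of -0.16, and positive for 3 and negative for 3 of the 6 HoxB genes, with a median of 0.04. With one Mek1 allele against controls 3 of 5 HoxA genes and 5 of 6 HoxB genes had positive differences, with medians of 0.04 and 0.23, while over all genes the median was -0.01. None of these genes was called in that comparison. The HoxB signs there depended on scaling. Under median scaling Hoxb2, Hoxb4 and Hoxb6 differed by 0.07, 0.05 and 0.12, but Hoxb3, Hoxb5 and Hoxb7 by -0.08, -0.3 and -0.21. The median over all genes was then -0.24. The genes that flank the clusters were read as well, taking the 5 nearest protein-coding genes on each side in the RefSeq order. Of 40 neighbours 37 had a probe, 29 were above background and 0 were called in any comparison with limma, where 3.28%, 0.566% and 0.734% of all genes were called in double mutants against controls, in double mutants against one Mek1 allele and with one Mek1 allele against controls. At these shares 0 calls among so few genes does not set the neighbours apart. In HoxD, where 0 Hox genes were above background, 5 of the 9 neighbours with a probe were, among them Mtx2, Atp5g3 and Nfe2l2. In HoxC 9 of the 9 with a probe were, and of all named genes 50.1%.

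Hox proteins bind DNA together with TALE homeodomain partners of the Pbx, Meis and Pknox families. Of 9 listed partners 7 were above background, Pbx2, Pbx3, Meis1, Meis2, Meis3, Pknox1 and Pknox2, and 0 were called in any comparison, which at the shares of all genes called (3.28%, 0.566% and 0.734%) does not set 7 genes apart. Meis1 averaged 10.41 in double mutants, 10.33 with one Mek1 allele and 10.65 in controls. It differed by -0.23 ± 0.11 in double mutants against controls (limma adjusted p = 0.275), where the groups did not overlap, as in 13.7% of all genes, and by -0.32 ± 0.11 with one Mek1 allele against controls (limma adjusted p = 0.176). Meis2 differed by -0.29 ± 0.11 with one Mek1 allele against controls (limma adjusted p = 0.194). Pknox2 differed by -0.59 ± 0.29 in double mutants against controls (limma adjusted p = 0.282). The median over the 7 partners was -0.12 in double mutants against controls.

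Polycomb proteins keep silent Hox genes silent. Of 20 listed Polycomb genes 14 were above background. Mtf2, a subunit that helps recruit Polycomb repressive complex 2, was the only one called. It was called in both comparisons with controls, where 3.28% and 0.734% of all genes were called. With 14 genes on the list, 1 call in each does not set the list apart. For Mtf2 both mutant groups lay wholly below the controls, while groups did not overlap in 13.7% and 9.91% of all genes. It averaged 8 in double mutants, 8.07 with one Mek1 allele and 8.59 in controls. Against controls it fell by 0.59 ± 0.10 in double mutants (limma adjusted p = 0.0097). With one Mek1 allele it fell by 0.52 ± 0.10 (limma adjusted p = 0.0438), and the mutant groups differed by -0.07 from each other. Without the 2 brightest arrays, control replicates 2 and 3, the first call was lost at a difference of -0.68 (limma adjusted p = 0.0703). The second was lost on leaving out any single array except one Mek1 allele replicate 1, with adjusted p up to 0.0899. Ezh2, the methyltransferase of the complex, differed by -0.27 ± 0.10 in double mutants against controls (limma adjusted p = 0.173), Rbbp7 by -0.25 (limma adjusted p = 0.201) and, with one Mek1 allele, Suz12 by -0.23 (limma adjusted p = 0.182) and Cbx2 by 0.41 (limma adjusted p = 0.241). The median over the 14 was -0.06 in double mutants against controls and 0.01 with one Mek1 allele against controls.

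Trithorax and MLL proteins keep active Hox genes active. Of 12 listed genes 10 were above background. In double mutants against controls 1 was called higher and 1 lower, where 3.28% of all genes were called. Kmt2b, an MLL-family histone methyltransferase, averaged 9.30 in double mutants and 8.90 in controls and rose by 0.40 ± 0.10 (limma adjusted p = 0.0409). Psip1, a chromatin tether of MLL, averaged 10.66 in double mutants and 11.02 in controls and fell by 0.36 ± 0.08 (limma adjusted p = 0.0293). With one Mek1 allele against controls Psip1 differed by -0.34 ± 0.08 (limma adjusted p = 0.062) and Kmt2b by 0.20 (limma adjusted p = 0.32). Both calls were lost on leaving out control replicate 2 or 3 or double mutant replicate 2 or 4, that of Psip1 also without control replicate 4 and that of Kmt2b also without double mutant replicate 1 or 3, with adjusted p up to 0.0905 for Psip1 and 0.128 for Kmt2b. Without control replicates 2 and 3 together Psip1 differed by -0.35 (limma adjusted p = 0.242) and under median scaling by -0.52 (adjusted p = 0.182). The difference of Kmt2b shrank to 0.25 (limma adjusted p = 0.373) and 0.24 (adjusted p = 0.475) under the same settings.

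Retinoic acid induces Hox genes of low paralogue number in cells and embryos. Of 18 listed genes of this pathway 16 had a probe and 8 were above background, and 0 were called in any comparison, which at the same shares of all genes does not set 8 genes apart. Rarb, a receptor and itself a retinoic acid target, averaged 7.27 in double mutants, 6.86 with one Mek1 allele and 7.39 in controls. It differed by -0.52 ± 0.14 with one Mek1 allele against controls (limma adjusted p = 0.0914). Double mutants exceeded one Mek1 allele by 0.41 ± 0.14 (limma adjusted p = 0.266), and in both the groups did not overlap, as in 9.91% and 6.34% of all genes. Aldh1a1, which makes retinoic acid, was likewise lowest with one Mek1 allele, with means of 6.07 in double mutants, 5.32 with one Mek1 allele and 5.89 in controls, and differences of 0.75 ± 0.19 against one Mek1 allele (limma adjusted p = 0.114) and -0.57 ± 0.19 with one Mek1 allele against controls (limma adjusted p = 0.159). Rarg differed by 0.40 ± 0.19 in double mutants against controls (limma adjusted p = 0.262).

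Of the upstream regulators listed, Cdx1, Cdx2, Cdx4, Egr2 and Gbx2 had probes and 0 of 5 were above background. Among the Evx genes, which end the HoxA and HoxD clusters, Evx1 was above background, differing by 0.27 ± 0.23 in double mutants against controls (limma adjusted p = 0.554), and Evx2 was not. Noncoding transcripts and miRNAs of the clusters had no probe listed here.

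**Figure D4:**
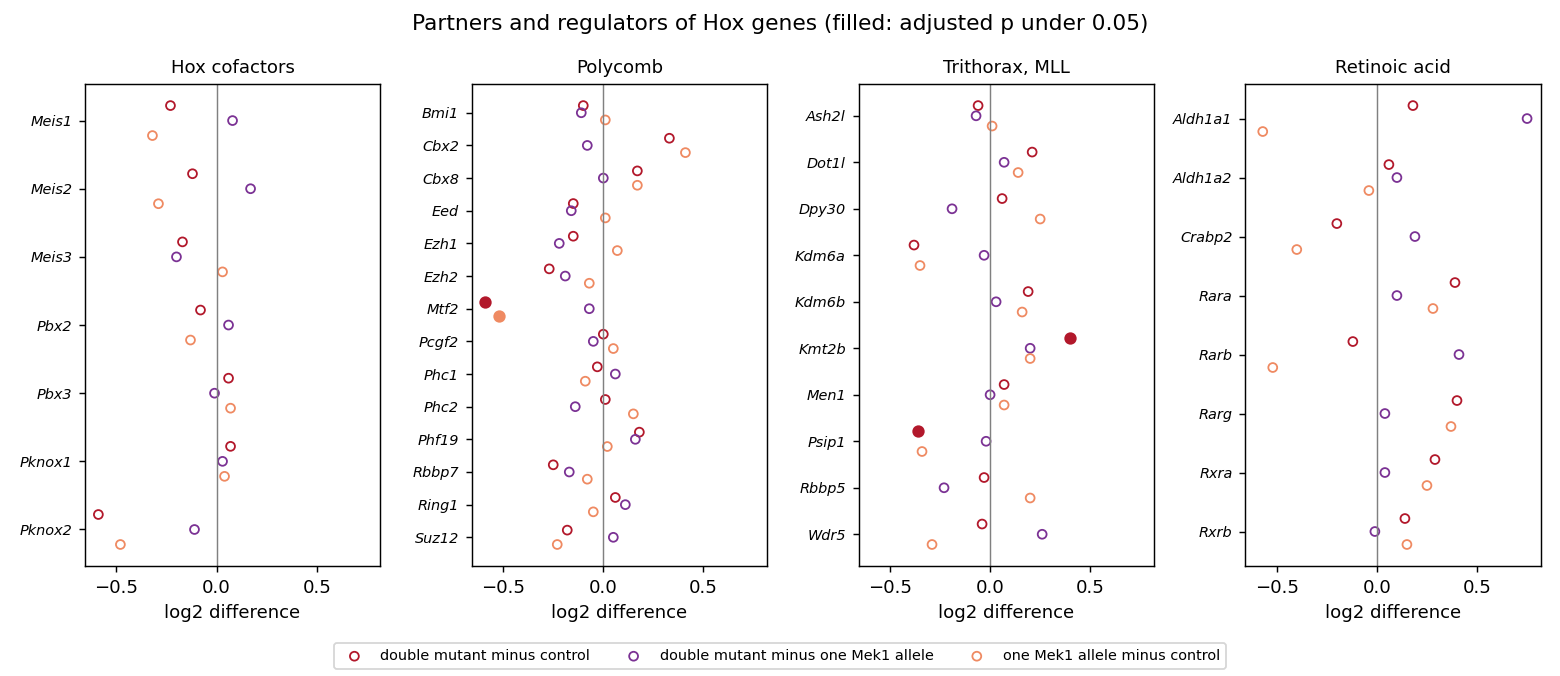
Log2 differences of the measured genes of 4 lists in the 3 comparisons, with filled points for an adjusted p under 0.05. The filled points are Mtf2 against controls in both mutant groups and Kmt2b and Psip1 in double mutants against controls.

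Cell markers were read beside the Hox values. For each marker list the summed level is the log2 of added linear intensities, so the brightest gene weighs most. The 6 mesenchymal markers mark cells that express most lung Hox genes. Their summed level ranged from 12.08 to 12.31 in double mutants, 11.94 to 12.37 with one Mek1 allele and 11.96 to 12.13 in controls. Gli1 and Wnt2 were below background, and 0 of the 6 were called in any comparison. At the shares of all genes called (3.28%, 0.566% and 0.734%) 0 calls does not set 6 genes apart. In double mutants against controls Tcf21, the brightest, differed by 0.44 (limma adjusted p = 0.0975) and Pdgfra by -0.37 (limma adjusted p = 0.218). The summed level of 5 mesothelial markers ranged from 10.74 to 11.09 in double mutants, 10.34 to 10.53 with one Mek1 allele and 10.26 to 10.43 in controls. Of the 5, 3 were called higher in double mutants against controls, where 3.28% of all genes were called. These were Upk3b, Rspo1 and Krt19 (limma adjusted p = 0.0142, 0.0163 and 0.0225). The others did not go the same way in that comparison, with Upk1b at -0.44 (limma adjusted p = 0.266), Wt1 at 0.08 and Msln below background. Against one Mek1 allele 1 of the 5 was called, Rspo1 at 0.96 (limma adjusted p = 0.0381), where 0.566% of all genes were. Of the macrophage and leukocyte markers Ptprc was below background and Csf1r had no probe, leaving C1qa, C1qb and C1qc. Summed, these ranged from 9.29 to 10.17 in double mutants, 9.10 to 9.48 with one Mek1 allele and 8.88 to 9.21 in controls. Of these 3 markers 1 was called, C1qc, which rose by 0.81 in double mutants against controls (limma adjusted p = 0.00709). Among 6 epithelial markers Sftpc was the brightest, averaging 12.67 in double mutants and 12.39 in controls. Their summed level ranged from 12.79 to 13.33 in double mutants, 12.76 to 12.96 with one Mek1 allele and 12.41 to 13.21 in controls. These ranges overlapped, and 1 of the 6, Sox2, rose by 0.58 in double mutants against controls (limma adjusted p = 0.0469). In the same comparison, where 3.28% of all genes were called, 1 of 4 endothelial markers, Tie1, rose by 0.34 (limma adjusted p = 0.042). Among 4 red cell markers 1 was called, Slc4a1, which fell by 1.03 (limma adjusted p = 0.0116). The red cell list split, with Alas2 at -0.4 (limma adjusted p = 0.182) but Hbb-bh1 at 1.06 (limma adjusted p = 0.0513) and Hba-x at 0.77 (limma adjusted p = 0.0506). Slc4a1 was also the 1 red cell marker called against one Mek1 allele, at -0.99 (limma adjusted p = 0.0381). The part of these marker differences in the Hox and partner values was not tested.

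**Figure D5:**
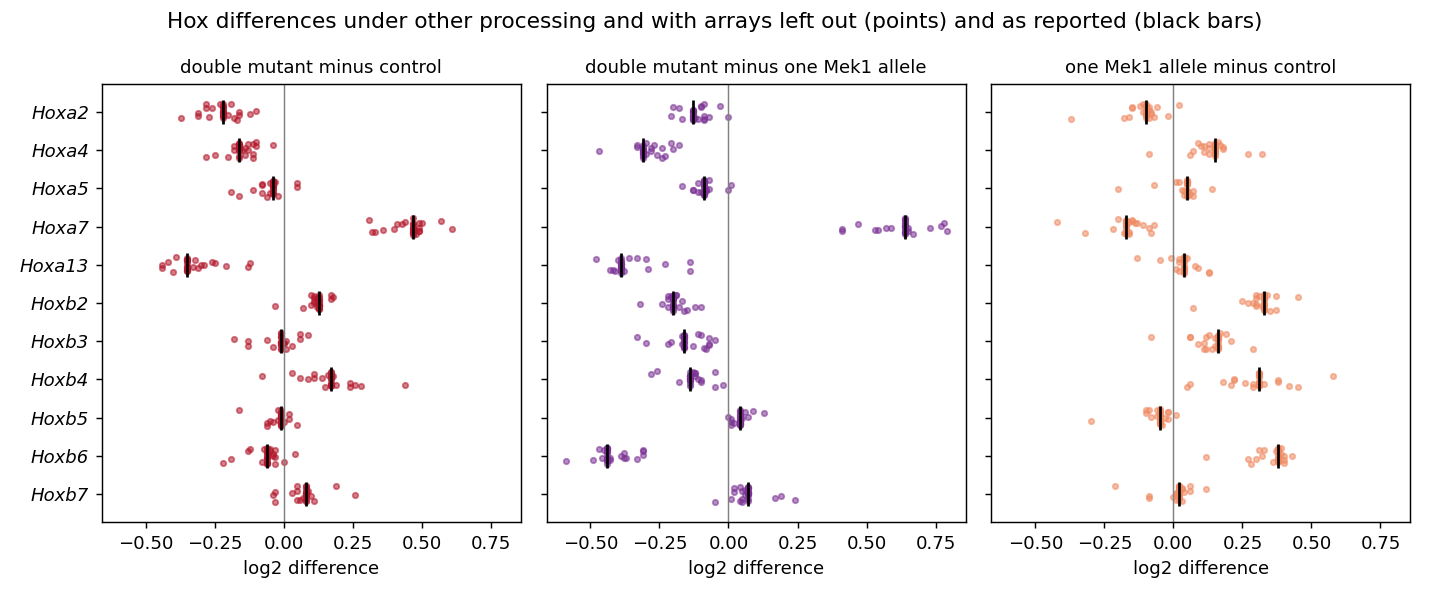
Log2 differences of the 11 Hox genes as reported (black bars) and under each other processing and each omission of arrays (points), in the 3 comparisons. Hoxa7 stays above 0 in both comparisons of double mutants, from 0.31 to 0.61 against controls and from 0.41 to 0.79 against one Mek1 allele, while the points of Hoxa5 and Hoxb3 fall on both sides of 0 against controls.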

How the data were processed

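Total RNA of 12 lung specimens, 4 per genotype, came from a Trizol extraction with DNase treatment and was labelled with biotin, as the labels' protocols state. Linear intensities of each probe, not normalized between arrays, were deposited together with a detection p-value for every intensity, per the file headers. The authors' deposited matrix holds log2 values with medians of 6.91 to 6.93. They differ by a median of 0.00386 from quantile-normalized log2 intensities, so scale and direction are known. The sources used here do not give their software.

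Background was fitted by normexp from the detection p-values (offset 16) and arrays were quantile normalized on log2 (nec and normalizeQuantiles, limma 3.58.1, R 4.3.3). A probe was kept if 4 or more of the 12 arrays had its detection p below 0.01, which held for 11841. Of all probes 23978 had 1 gene symbol, 0 several and 1719 none listed. The probe with the highest mean stood for a gene. The 3 group means were fitted together with lmFit and eBayes (9 residual degrees of freedom), two-sided. The procedure was tested on simulated data. Raw 5th percentiles ran from 84.79 to 105.4, and arrays of a group correlated at 0.979 to 0.993. Probe levels were compared in choosing the probe that stood for a gene and were added in the marker sums. No Hox gene was ranked above another by its level.

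Values on every array are given for Hoxa5, Hoxb5, Hox genes whose groups do not overlap and the 3 with the smallest p per comparison. From other lists, genes past the threshold and up to 3 with the smallest p were eligible. Members, lists and rules were chosen with earlier results of these data known. The RefSeq table (GRCm38.p6) served for names and gene order, and for the promoter sequences. Alternatives were other background, scaling, filter, probe and variance choices, the authors' log2 values, covariates, a replicate block, and omitted arrays.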

Additional observations from a re-analysis of the deposited data

Results flagged for a closer look

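Of 33 sets of 4 values (11 Hox genes in 3 genotypes) 2 held an array far from the other 3, where chance gives about 1 in 20. Hoxb4 in control replicate 1 read 6.81, against 7.77 to 7.88 in the other controls. Hoxb6 in control replicate 3 read 7.45, against 7.69 to 7.73 in the other controls.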

How the results depend on the processing

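The count of Hox genes called stayed at 0 in all 3 comparisons under all 30 alternatives. Of these, 1 (variance estimated over all passing probes) was chosen after seeing the data. Another, a stricter threshold on adjusted p, could not have added a call. Each Hox gene was counted once, by its brightest probe or the mean of its probes. The Hoxb3 probe at -0.41 in double mutants against controls and -0.47 against one Mek1 allele was therefore not counted by itself. The smallest adjusted p under any alternative was 0.0598, for Hoxb6 in double mutants against one Mek1 allele. There the difference ran from -0.59 to -0.31. Over the alternatives Hoxa7 ran from 0.31 to 0.61 in double mutants against controls, Hoxa13 from -0.44 to -0.12, and Hoxb2 from 0.07 to 0.45 with one Mek1 allele against controls. Hox genes above background numbered 15 at a detection p under 0.05 or with 1 array enough, which adds Hoxc4, Hoxc8, Hoxc10 and Hoxc13, and 10 when all 12 arrays were needed, which drops Hoxa13. Median scaling moved the median of all genes to -0.13, 0.11 and -0.24 in double mutants against controls, in double mutants against one Mek1 allele and with one Mek1 allele against controls, and the Hox medians to -0.16, -0.02 and -0.13. The number of all genes called ran from 30 to 613, from 1 to 84 and from 5 to 227 in the same order. Samples of different groups that share a replicate number did not deviate together (12 correlations from -0.23 to 0.18, and 3 of 12 samples closest to their own number). With the replicate block 0 Hox genes were called, 158, 11 and 20 of all genes were, and the calls of Kmt2b (adjusted p = 0.0789), Psip1 (0.0683) and Mtf2 with one Mek1 allele (0.0533) were not kept. Detection limits what can be said of the 27 Hox genes below background.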
